A study of Homo sapiens with 29 samples.

Results

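The genes described here are 10 immediate early genes of the human genome, chosen by name: EGR1, EGR3, NR4A1, NR4A2, NR4A3, IER2, IER3, IER5, KLF6 and KLF10. Their rows were found by matching the Ensembl identifiers of the 3 deposited tables of counts to gene symbols. Of the 10 genes, 8 have a row in at least 1 table, among 10737 genes that do. EGR1, NR4A1, IER2, IER3, IER5, KLF6 and KLF10 are in all 3 tables, and NR4A2 is in the table of ruptured micronuclei alone. EGR3 and NR4A3 are not listed in any of the tables and are not analysed further. The study's filter asked for 700 counts or more in at least 2 libraries, a level of 4.82 to 14.6 CPM (counts scaled to the library total) depending on the library. A gene that passed through the libraries of 1 group keeps its row though fewer than 2 libraries of the other reached the filter. For such a gene the filter itself favours a difference between the groups. EGR1 in the Mps1i table and NR4A2 in the rupture table are such genes.

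RNA was measured in hTERT RPE-1 (RPE1) cells, a human retinal pigment epithelium line made immortal with telomerase, which carried a fluorescent nuclear marker and the photoconvertible protein Dendra2. Cells were sorted by visual cell sorting: nuclei were classified in live images, converted with a 200 ms or 800 ms pulse of violet light, and the cells were detached and separated by their red to green ratio before they were frozen. In an Mps1i table, 4 DMSO and 4 Mps1i libraries from 2 experiments compare cells given the solvent with cells given 100 nM BAY1217389 (Mps1i) for 24 h, an inhibitor of the spindle checkpoint kinase Mps1 that makes chromosomes missegregate, with both pulses used at random in each. In an MN table, 4 MN+ and 4 MN- libraries from 2 experiments compare cells with and without micronuclei (MN), all given Mps1i, with the 2 pulses exchanged between 2 wells of each experiment. A rupture table holds 3 rupture+ and 3 rupture- libraries from 3 experiments. It compares cells with at least 1 ruptured micronucleus with cells whose micronuclei were all intact. Every rupture+ library received the 200 ms pulse and every rupture- library the 800 ms pulse, so pulse and rupture cannot be told apart there.

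All cells of the rupture table were given Mps1i, and the sample labels add a pre-treatment of 20 h with 10 µM RO-3306, an inhibitor of the mitotic kinase Cdk1, where the methods of the study name an inhibitor of Cdk4/6 at that step. By those methods, every sorted population, DMSO included, also received RO-3306 for 1 h before imaging. In the MN and rupture tables an image classifier assigned the groups, so each group there is enriched for its class and not pure. DMSO and Mps1i cells were treated separately, and their nuclei received the pulses at random. Total counts were 47919780 to 145242185 per library, and 1 of the MN- libraries, converted for 200 ms in experiment 2, held 62831160 where the other MN libraries of that experiment held 116934561 to 136865912. Of 6 markers of an epithelial RPE line 6 were measured, of 8 markers of differentiated pigment epithelium 2 (MITF and OTX2), and of 6 blood markers none had a row. Libraries of 1 condition come from only 2 or 3 separate days, so p-values reflect how far these libraries spread. The study describes each experimental replicate of DMSO and Mps1i cells as 2 technical replicates, so n = 4 there stands for 2 experiments. The main test counts these libraries as separate samples.

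Immediate early genes are transcribed within minutes of a stimulus without new protein synthesis, mostly from factors that are already present and become phosphorylated, such as SRF with its ternary complex partners and CREB. Their transcripts are short-lived, so their level follows recent signalling. EGR1 and EGR3 are zinc finger transcription factors classically induced by growth factors through the ERK pathway. NR4A1, NR4A2 and NR4A3 are orphan nuclear receptors induced by cAMP, calcium and stress signals. IER2, IER3 and IER5 are named for immediate early response: IER3 modulates apoptosis and ERK signalling, and IER5 acts on the heat shock factor HSF1. KLF6 and KLF10 are Krüppel-like zinc finger factors, and KLF10 is a target of TGF-beta.

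EGR1 had the largest fold change of these genes in each comparison, so the bases before its start are shown, with those of IER5, whose level differed little, for contrast. Both are from RefSeq promoters of GRCh38.p14, each covering the 150 bases before the gene's start on the plus strand: chr5:138465329-138465478 for EGR1 and chr1:181088550-181088699 for IER5. Capitals mark CArG boxes, the binding motif of SRF.
EGR1: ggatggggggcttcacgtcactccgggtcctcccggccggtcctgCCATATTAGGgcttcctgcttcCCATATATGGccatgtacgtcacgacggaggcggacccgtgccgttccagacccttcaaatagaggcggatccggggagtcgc
IER5: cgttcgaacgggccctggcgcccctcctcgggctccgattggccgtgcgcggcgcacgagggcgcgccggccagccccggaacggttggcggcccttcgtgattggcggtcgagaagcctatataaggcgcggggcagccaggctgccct

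The EGR1 stretch holds 2 CArG boxes, CCATATTAGG at 105 to 96 bases and CCATATATGG at 83 to 74 bases before the start. Windows from 250 bases before to 50 after the start were searched on both strands for every gene in the RefSeq table, and a CArG box lies in 1.29% of those 35116 promoters. The EGR1 window also holds 2 matches to the short CRE motif TGACG, a motif of CREB found in 24.6% of promoters, and 1 match to GCGNGGGCG, the motif of the EGR factors themselves, found in 9.43%. Windows were listed for EGR1, NR4A1, NR4A3, IER2, IER5 and KLF6. NR4A3 has 4 short CRE motifs. IER2 has 1 short CRE motif and 1 match to the ETS core CCGGAAG, which 10.3% of promoters hold. KLF6 has 1 EGR motif. Neither the IER5 window nor the 2 windows of NR4A1 held any of these motifs. The NR4A1 windows cover chr12:52022582-52022881 and chr12:52037465-52037764, and no other part of that gene was searched. No window of the listed genes held the full CRE TGACGTCA (1.85% of promoters), an NF-kB site (5.91%) or TATAAA (11.5%). A match describes the letters of a window and not a bound site. The 2 printed stretches were picked by the levels of their genes in these data. Whether motifs go with the changes of these genes was not tested.

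EGR1 (ENSG00000120738, 2 exons, chr5:138465479-138469303 on GRCh38) was higher in the first-named group of each comparison, in every library and every matched pair. The fitted change was 3.10-fold with Mps1i, 1.91-fold with micronuclei and 2.17-fold with rupture, and the test called the Mps1i and rupture differences but not that of micronuclei. The test is edgeR's quasi-likelihood test with Benjamini-Hochberg adjustment over all genes of a table, a call is an adjusted p below 0.05, and a block is a term that compares libraries within their own experiment or well. Levels here are CPM after 1 scaling (TMM) over all 22 libraries. In DMSO, EGR1 was at 7.56 and 6.59 CPM in experiment 1 (200 ms and 800 ms) and at 4.55 and 2.46 CPM in experiment 2. In Mps1i it was at 16.4 and 16.4 CPM in experiment 1 and at 15.2 and 16.9 CPM in experiment 2. All 4 Mps1i libraries lay above all 4 DMSO libraries, as 10.1% of all genes of that table did.

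In MN- cells, EGR1 was at 18.3 and 24.3 CPM in experiment 1 and at 17.5 and 16.7 CPM in experiment 2 (200 ms and 800 ms). In MN+ cells it was at 43.7 and 35.4 CPM in experiment 1 and at 24.96 and 42.7 CPM in experiment 2. The groups did not overlap, though the lowest MN+ library, of experiment 2 and the 200 ms pulse, lay close to the highest MN- library, and 2.43% of all genes were higher without overlap. In rupture- cells EGR1 was at 31.7, 34.7 and 37.9 CPM in experiments 1 to 3, and in rupture+ cells at 61.5, 79.7 and 88.0 CPM. Again no library of the first group reached the second, as for 9.58% of all genes of the rupture table.

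**Figure D1:**
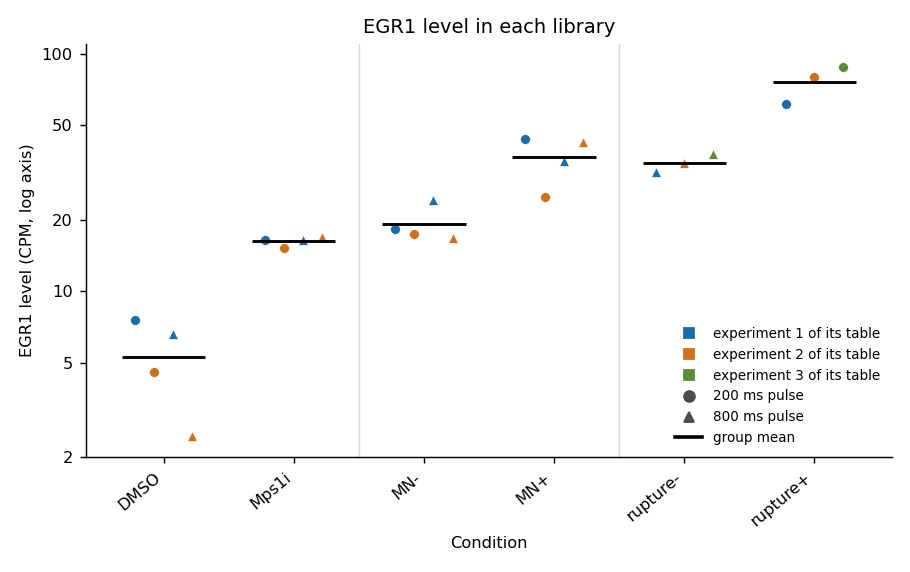
EGR1 level of each library in CPM on a log axis, by condition, with colours for the experiment within its table, circles for 200 ms and triangles for 800 ms pulses, and bars for group means. DMSO libraries lie between 2.46 and 7.56 CPM and rupture+ libraries between 61.5 and 88.0 CPM, and within each table the groups do not overlap. In the Mps1i table the row of EGR1 passed the filter only through the Mps1i libraries.

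The fitted log2 fold change of EGR1 was 1.63 ± 0.265 for Mps1i against DMSO (SE, adjusted p = 0.00334 in edgeR). Its row in that table rests on the Mps1i libraries, which held 1077 to 2232 counts where the DMSO libraries held 345 to 624, all under the filter of 700, so this call is not independent of the filter. For rupture+ against rupture- it was 1.12 ± 0.132 (SE, adjusted p = 0.0477 in edgeR), and with the experiment as a block the adjusted p was 0.00298. That call was made in 8 of 16 alternatives and was lost without any of 5 of the 6 libraries (adjusted p from 0.0881 to 0.306), without experiment 2 or 3 (0.436 and 0.476) and with DESeq2 size factors in place of TMM (0.0508 in edgeR). For MN+ against MN- it was 0.93 ± 0.182 (SE), and this did not pass (adjusted p = 0.641 in edgeR, 0.146 with the experiment as a block). With the well as the block the same difference gave 0.91 ± 0.0971 (SE, adjusted p = 9.20e-04 in edgeR), and DESeq2's likelihood ratio test gave an adjusted p of 0.00387. Those calls stand beside 0.321% of all genes called higher with the well as the block and 0.0472% in DESeq2. The wells come from only 2 experiments, and the well block counts each well as a separate pair. Whether the changes of EGR1 in the 3 comparisons differ was not tested.

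Within matched pairs, Mps1i to DMSO ratios of EGR1 were 2.17 and 2.49 in experiment 1 and 3.33 and 6.88 in experiment 2. The largest ratio stands on the DMSO library with the lowest level, the 800 ms library of experiment 2, which held 345 EGR1 counts. By well, MN+ to MN- ratios were 1.80 and 1.93 in experiment 1 and 1.496 and 2.45 in experiment 2. By pulse they were 2.38 and 1.45 in experiment 1 and 1.43 and 2.56 in experiment 2. Rupture+ to rupture- ratios were 1.94, 2.30 and 2.32. In libraries made from many cells, a higher level in every cell and a larger share of cells with the transcript cannot be told apart.

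In order of mean level, EGR1 was lowest in DMSO (5.29 ± 2.27 CPM, SD, n = 4), then in Mps1i (16.2 ± 0.741, n = 4), MN- (19.2 ± 3.49, n = 4), rupture- (34.7 ± 3.09, n = 3), MN+ (36.7 ± 8.66, n = 4) and rupture+ (76.4 ± 13.6, n = 3). The highest mean was 14.4 times the lowest. Neighbours in that order overlapped between Mps1i and MN- and between rupture- and MN+, and not elsewhere. Conditions of different tables were sorted on different days and, for the rupture table, after another pre-treatment, so no test was made across tables.

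NR4A1 (ENSG00000123358, 7 exons, chr12:52022832-52059507) rose with Mps1i, in each of the 4 matched pairs. It stood at 21.4 and 25.5 CPM in the DMSO libraries of experiment 1 and at 17.0 and 18.1 CPM in those of experiment 2. The Mps1i libraries held 29.5 and 32.2 CPM in experiment 1 and 27.5 and 27.7 CPM in experiment 2. All lay above the highest DMSO library, as for 10.1% of all genes of that table. The log2 fold change was 0.51 ± 0.118 (SE, adjusted p = 0.0182 in edgeR), and without the 800 ms DMSO library of experiment 2 the adjusted p was 0.0519.

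Between MN- and MN+ the levels of NR4A1 overlapped, from 18.6 to 23.5 CPM in MN- and from 21.4 to 26.9 CPM in MN+, with a log2 fold change of 0.21 ± 0.103 (SE, adjusted p = 0.641 in edgeR). In the rupture table NR4A1 was at 39.7, 48.5 and 53.3 CPM in rupture- and at 45.2, 78.3 and 69.3 CPM in rupture+. It was higher with rupture in all 3 pairs, but the rupture+ library of experiment 1 lay below 2 of the rupture- libraries. The log2 fold change of 0.43 ± 0.184 (SE) did not pass (adjusted p = 0.556 in edgeR). Both groups of the rupture table lay above all libraries of the other tables, the lowest at 39.7 CPM against a highest of 32.2 CPM elsewhere, and the different pre-treatment, days and sorting cannot be told apart in that gap.

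NR4A2 (ENSG00000153234, 8 exons, chr2:156324437-156342348) could be followed in the rupture table alone. It was at 9.75, 8.09 and 7.73 CPM in rupture- and at 13.98, 20.0 and 18.8 CPM in rupture+, which are 506 to 776 and 954 to 1349 counts. All 3 rupture+ libraries but only 1 rupture- library reached the 700 counts of the filter, so NR4A2 has a row only through rupture+ and its tests are not independent of the filter. Every rupture+ library lay above every rupture- library, as for 9.58% of all genes of the rupture table. The ratios within experiments were 1.43, 2.48 and 2.43. The log2 fold change was 1.03 ± 0.163 (SE), close to that of EGR1, but it did not pass in edgeR (adjusted p = 0.108, and 0.0801 with the experiment as a block). DESeq2's likelihood ratio test gave an adjusted p of 4.22e-06, where it called 0.402% of all genes higher. Without experiment 1, whose pair shows the smallest ratio, edgeR gave a log2 fold change of 1.28 and an adjusted p of 0.00531.

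**Figure D2:**
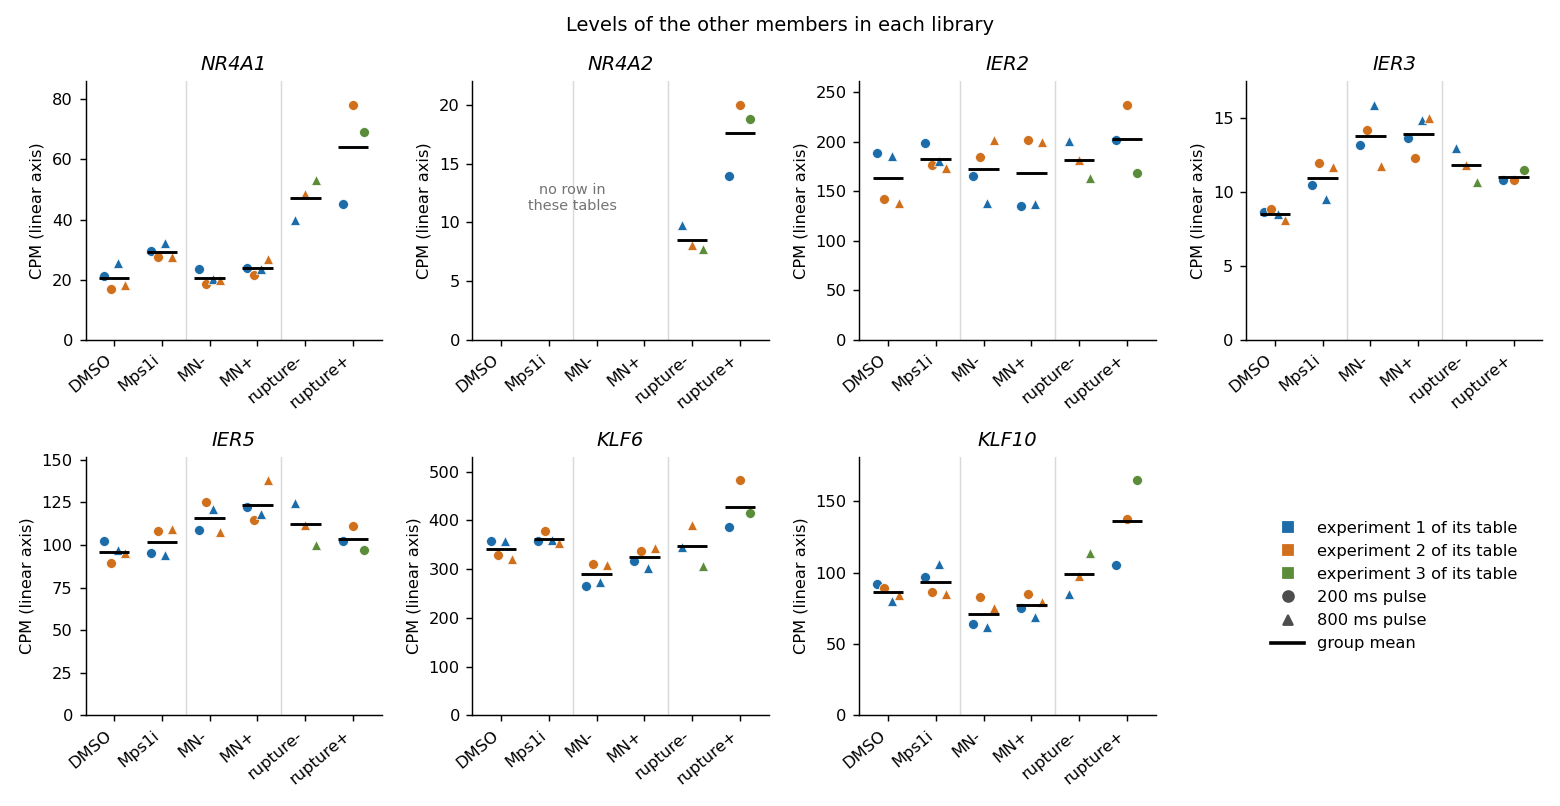
Level of the other 7 measured genes in each library, in CPM on linear axes that start at 0, with colours for experiments, circles and triangles for the 200 ms and 800 ms pulses, and bars for group means. NR4A1 is highest in the rupture table, where its groups overlap, and IER2, IER5 and KLF6 stay within 1.5 times between their lowest and highest group means. The rupture+ and rupture- libraries of NR4A2 do not overlap, but its row passed the filter only through rupture+, which favours that gap.

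IER3 was the remaining gene that the test called. Its row carries the identifier ENSG00000235030, which the study names IER3 and which lies outside the primary annotation of GENCODE v44. No row carries the primary identifier, so how reads were divided between copies of the gene is uncertain. IER3 was at 8.69 and 8.50 CPM in the DMSO libraries of experiment 1 and at 8.87 and 8.08 CPM in those of experiment 2. In Mps1i it was at 10.5 and 9.51 CPM in experiment 1 and at 11.99 and 11.7 CPM in experiment 2. These lay above every DMSO library, as for 10.1% of all genes of that table. The log2 fold change was 0.36 ± 0.0884 (SE, adjusted p = 0.0253 in edgeR). This call was lost without the 800 ms DMSO library of experiment 1 (adjusted p = 0.0523), without any one of the 4 libraries of experiment 2 (0.0517 to 0.0845), without experiment 2 as a whole (0.361), and with the pulses of an experiment summed and the experiment as a block (0.0689).

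In the other tables IER3 did not separate the groups. MN- libraries lay between 11.8 and 15.9 CPM and MN+ libraries between 12.3 and 15.0 CPM (log2 fold change 0.02, SE 0.120, adjusted p = 0.973 in edgeR). Rupture- libraries lay between 10.7 and 13.0 CPM and rupture+ libraries between 10.8 and 11.5 CPM (log2 fold change -0.12, SE 0.126, adjusted p = 0.725). DMSO had the lowest mean IER3 level of the 6 conditions and did not overlap with its neighbour Mps1i, while the remaining neighbours overlapped.

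IER2 (ENSG00000160888, 2 exons, chr19:13150411-13154911), a small nuclear protein, was at 188 and 185 CPM in the DMSO libraries of experiment 1 and at 142 and 139 CPM in those of experiment 2. In Mps1i it was at 199 and 181 CPM in experiment 1 and at 177 and 174 CPM in experiment 2. The DMSO libraries of the 2 experiments differed more from each other than from the Mps1i libraries of their own experiment, and the log2 fold change of 0.16 ± 0.101 (SE) did not pass in edgeR (adjusted p = 0.331). With the experiment as a block it was 0.17 ± 0.0561 (SE) and passed (adjusted p = 0.0443 in edgeR), but not with the pulses of each experiment summed beside the block (adjusted p = 0.155). MN- and MN+ libraries of IER2 ran from 138 to 202 and from 135 to 202 CPM, and rupture- and rupture+ libraries from 163 to 201 and from 168 to 238 CPM. The group means of IER2 differed by at most 1.24 times over the 6 conditions, and all neighbours in their order overlapped.

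IER5 (ENSG00000162783, 1 exon, chr1:181088700-181092900) lay between 89.2 and 138 CPM in all 22 libraries. Its log2 fold changes were 0.08 ± 0.0602 for Mps1i (SE), 0.09 ± 0.0857 for MN+ (SE) and -0.13 ± 0.103 for rupture+ (SE), with adjusted p = 0.406, 0.762 and 0.636 in edgeR. It was the gene with a lower level in rupture+ than in rupture- in all 3 pairs, though the levels of the groups overlapped.

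KLF6 (ENSG00000067082, 4 exons, chr10:3775996-3785281) and KLF10 (ENSG00000155090, 4 exons, chr8:102648784-102655725) were higher in rupture+ than in rupture- in every pair without passing the test. KLF6 was at 345, 390 and 307 CPM in rupture- and at 386, 482 and 415 CPM in rupture+, a log2 fold change of 0.28 ± 0.110 (SE, adjusted p = 0.550 in edgeR). KLF10 was at 84.9, 97.9 and 114 CPM in rupture- and at 105, 137 and 165 CPM in rupture+, a log2 fold change of 0.44 ± 0.156 (SE, adjusted p = 0.550). For both the ranges of the groups overlapped. KLF10 passed in DESeq2 with the experiment as a block (adjusted p = 0.00453) and in no other test.

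KLF6 was also higher in MN+ than in MN- in all 4 pairs, by 1.09 to 1.16 times within a well, from 265 to 311 CPM in MN- and from 303 to 343 CPM in MN+ (log2 fold change 0.16, SE 0.0809, adjusted p = 0.641 in edgeR). With Mps1i its log2 fold change was 0.08 ± 0.0469 (SE, adjusted p = 0.264), from 320 to 358 CPM in DMSO and from 354 to 377 CPM in Mps1i. KLF10 ran from 80.3 to 92.2 CPM in DMSO and from 84.9 to 106 CPM in Mps1i (log2 fold change 0.11, SE 0.0751, adjusted p = 0.366). In the MN table KLF10 ran from 62.1 to 83.1 CPM in MN- and from 68.5 to 85.0 CPM in MN+ (log2 fold change 0.11, SE 0.110, adjusted p = 0.764). The lowest group means of both genes were those of MN- and the highest those of rupture+, 1.48 times apart for KLF6 and 1.91 times for KLF10. For KLF6 the rupture+ libraries lay above those of its neighbour Mps1i, while all other neighbours overlapped.

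Counted over the genes, 2 of the 6 in the Mps1i table whose row does not rest on the Mps1i libraries alone (NR4A1 and IER3) were called higher with Mps1i and none lower, where 6.32% of all 10577 genes of the table were called higher. With the experiment as a block 3 of the 6 were called higher, where 12.7% of all genes were. In the MN table edgeR called none of the 7, as it called 0% of all 10594 genes, while 1 of them, EGR1, had an unadjusted p under 0.05. Limma-voom also called none, DESeq2 called EGR1, and with the block for the experiment edgeR called none of the 7 and 0.00944% of all genes higher. Of the 7 genes measured with rupture apart from NR4A2, 1 (EGR1) was called higher, where 0.0317% of all 9461 genes were, and with the experiment as a block it was again EGR1 alone, against 0.116% of all genes. The library whose omission did not end the EGR1 call was the rupture+ library of experiment 1.

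**Figure D3:**
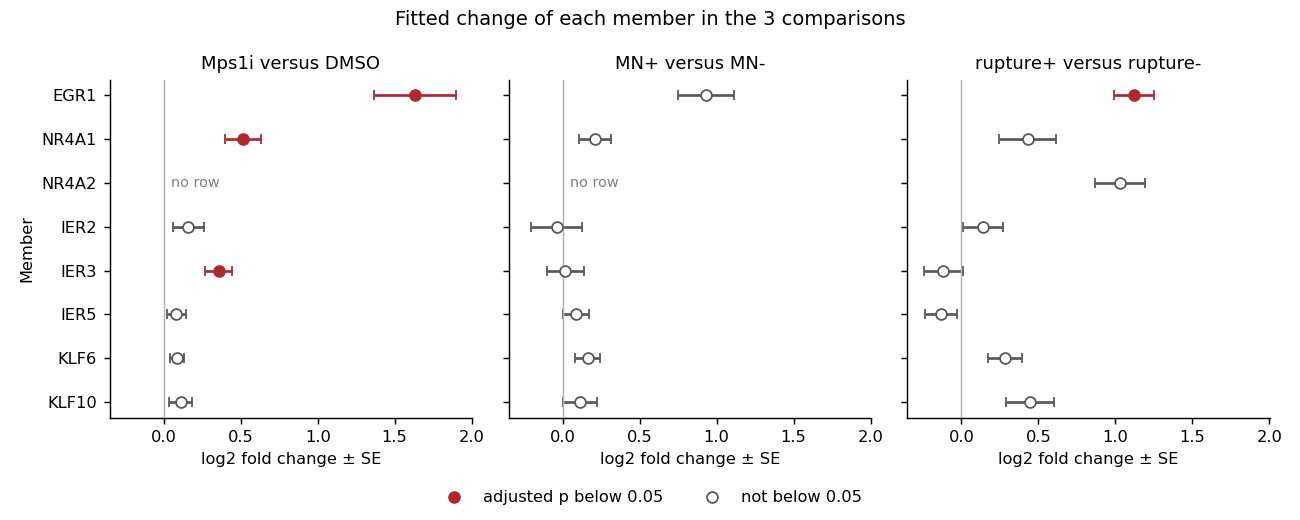
Fitted log2 fold change of each gene in the 3 comparisons, with bars of 1 SE and filled red points where the adjusted p in edgeR was below 0.05. EGR1 has the largest value in each panel, 1.63, 0.93 and 1.12, and NR4A2 follows it with 1.03 for rupture. The rows of EGR1 with Mps1i and of NR4A2 with rupture passed the filter only through the first-named group.

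**Figure D4:**
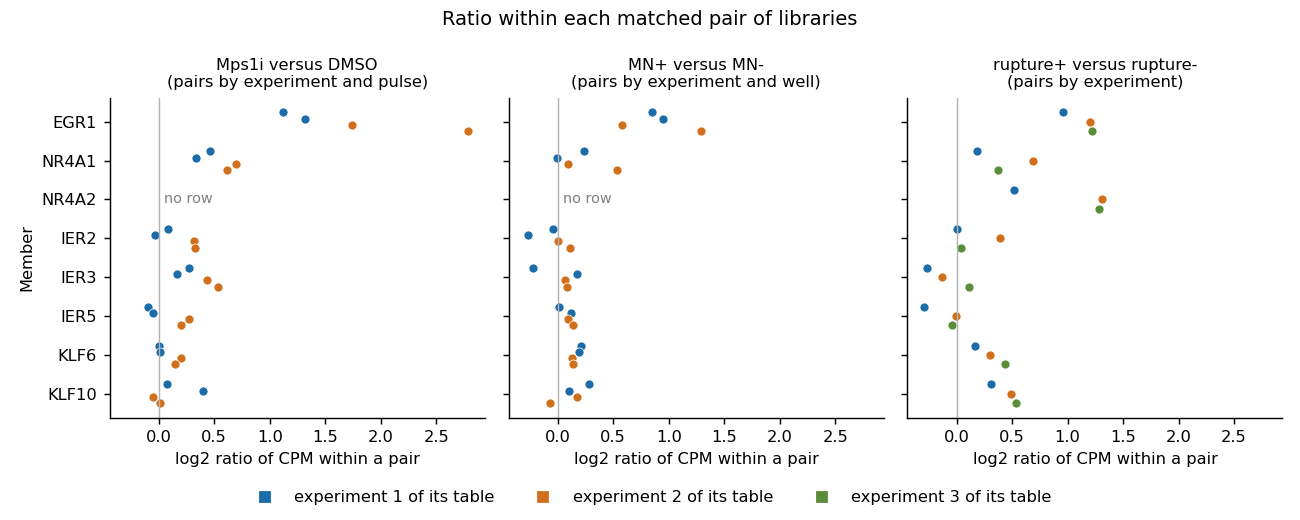
Log2 ratio of CPM within each matched pair of libraries, with colours for the experiment: Mps1i to DMSO libraries of the same experiment and pulse, MN+ to MN- libraries of the same well, and rupture+ to rupture- libraries of the same experiment. All 11 ratios of EGR1 lie above 0, from 0.58 to 2.78, and the Mps1i ratios of EGR1, NR4A1, IER2, IER3, IER5 and KLF6 are higher in both pairs of experiment 2 than in both of experiment 1.

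The Mps1i effect was not shown to differ between the experiments for any of the genes. The difference between its log2 fold changes in experiment 2 and experiment 1 was 0.98 ± 0.306 for EGR1 (SE), 0.29 ± 0.0702 for IER2 (SE), 0.30 ± 0.0711 for IER5 (SE), 0.16 ± 0.0593 for KLF6 (SE) and -0.26 ± 0.0970 for KLF10 (SE). None passed the adjustment in edgeR (adjusted p = 0.228, 0.140, 0.122, 0.298 and 0.308), where 0.359% of all genes did, and limma-voom also called none. Unadjusted, these 5 of the 7 genes had p under 0.05, where 12.6% of all genes did. For EGR1 and IER2 the DMSO libraries differ more between experiments than the Mps1i libraries do: EGR1 was at 6.59 and 7.56 CPM in the DMSO libraries of experiment 1, at 2.46 and 4.55 CPM in those of experiment 2, and between 15.2 and 16.9 CPM in all Mps1i libraries. Without experiment 1, edgeR called 6 of the 7 genes higher with Mps1i, all but KLF10, where it called 1483 of all 10577 genes higher. Without experiment 2 it called 2, EGR1 and NR4A1, where it called 284 of all genes higher. EGR1, whose row rests on the Mps1i libraries, is in both counts. For the MN+ effect edgeR called none of the 7 genes different between experiments, nor had any an unadjusted p under 0.05, and it called 0.00944% of all genes.

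Pulse length moved none of the 7 genes past the test. The log2 fold change of 800 ms against 200 ms for EGR1 was -0.17 in the Mps1i and DMSO table (SE 0.270) and 0.19 in the MN table (SE 0.182), with adjusted p = 1 in edgeR. EdgeR called 0% of all genes for pulse length in both tables, limma-voom called none of the 7 either, and no member had an unadjusted p under 0.05 by either tool. In the rupture table, where pulse and rupture coincide, these values bear on the pulse in other cells and days only.

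Levels of different genes can be compared once divided by the length of the transcript. Per kb of its canonical transcript, DMSO cells held most IER2 (77.5 ± 12.8 CPM per kb, SD, n = 4) and KLF6 (74.3 ± 4.32), then KLF10 (29.6 ± 1.80), IER5 (22.9 ± 1.27), NR4A1 (8.24 ± 1.53), IER3 (6.90 ± 0.275) and EGR1 (1.69 ± 0.723). EGR1 was thus the scarcest of the 7 in DMSO. In rupture+ cells the order was IER2 (95.9 ± 16.5 CPM per kb, SD, n = 3), KLF6 (93.2 ± 10.8), KLF10 (46.6 ± 10.2), NR4A1 (25.9 ± 6.89), IER5 (24.6 ± 1.75), EGR1 (24.4 ± 4.33), IER3 (8.93 ± 0.336) and NR4A2 (5.07 ± 0.923). There EGR1, NR4A1 and IER5 did not differ beyond their spread.

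Few other genes of the same families and their co-regulators were called. Of 20 listed, 12 were measured with Mps1i, and 1 was called higher and none lower, with a median log2 fold change of 0.11. KLF7, another Krüppel-like factor, was that gene, with a log2 fold change of 0.42 ± 0.0813 (SE, adjusted p = 0.00836 in edgeR). IER5L, a relative of IER5, had 0.35 ± 0.116 (SE, adjusted p = 0.0725) and passed with the experiment as a block (adjusted p = 0.0377). NAB1, a co-repressor that binds EGR proteins, had 0.22 ± 0.119 (SE, adjusted p = 0.246). KLF5 had 0.21 ± 0.106 (SE, adjusted p = 0.220). None of 13 was called between MN+ and MN- (median 0.05), where 0% of all genes were called higher. None of 12 was called with rupture (median -0.01), where 0.0317% of all genes were called higher. With rupture KLF7 had 0.39 ± 0.102 (SE, adjusted p = 0.491 in edgeR) and IER5L -0.44 ± 0.205 (SE, adjusted p = 0.557).

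Of 37 other immediate early genes, 34 were measured with Mps1i, with a median log2 fold change of 0.26 against 0.00 over all genes. Of the 34, 15 were called higher and 1 lower, where 6.32% of all genes were called higher. ATF3 and BTG2, 2 of the 15, have a row only through the Mps1i libraries, and of the other 32 genes 13 were called higher. With the experiment as a block 23 of the 34, ATF3 and BTG2 included in the 34, were called higher and 3 lower. With that block 1340 of all 10577 genes (12.7%) were called higher and 1253 lower. ATF3, a stress-induced transcription factor, had the smallest adjusted p (log2 fold change 1.62, SE 0.161, adjusted p = 3.16e-04 in edgeR). Its fold change was close to that of EGR1, but both rows rest on the Mps1i libraries, so neither value is independent of the filter. PLK3, a stress-responsive kinase, had 0.58 (adjusted p = 5.86e-04), MAFF, a small MAF factor, 0.52 (adjusted p = 0.00123) and TNFAIP3, an inhibitor of NF-kB signalling, 0.92 (adjusted p = 0.00218). In the MN table none of 35 was called (median 0.10). TNFAIP3 was called there with the experiment as a block (0.93, adjusted p = 0.0117 in edgeR), where 0.00944% of all genes were called higher. In the rupture table none of 34 was called (median 0.14), and with the experiment as a block 3 were, where 0.116% of all genes were called higher. Among the 3 were TNFAIP3 (0.85, adjusted p = 0.0224 in edgeR) and ATF3 (1.13, adjusted p = 0.0343), whose row there rests on rupture+ alone.

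The genes of the upstream pathway, receptors, kinases of the ERK cascade, SRF, its partners and CREB with its coactivators, showed small differences. All 27 were measured with Mps1i, with a median log2 fold change of 0.01. Of the 27, 3 were called higher and 1 lower, where 6.32% of all genes were called higher. RPS6KA1, a kinase activated by ERK and 1 of those called higher, had a log2 fold change of 0.19 (adjusted p = 0.0365 in edgeR) and SHC1, an adaptor of growth factor receptors that was also called higher, had 0.14 (adjusted p = 0.0358 in edgeR). None of 27 was called between MN+ and MN- (median 0.07), where 0% of all genes were called higher. None of 25 was called with rupture (median -0.04), where 0.0317% of all genes were called higher. Transcript levels of kinases do not measure their activity.

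To see which genes moved most like each of the 7, log2 CPM was taken as the deviation from the mean of its own experiment and correlated over the 22 libraries with each of the 9431 genes in all 3 tables. The values are descriptions: libraries of 1 group share their condition, and pairs share a day. EGR1 moved most like PPP1R15A (r = 0.960), a regulator of the eIF2alpha phosphatase, TSC22D3 (r = 0.954) and ATF3 (r = 0.941). The row of ATF3 rests on the first-named group in all 3 tables, and that of EGR1 in the Mps1i table. Their likeness is thus not independent of the filter. NR4A1 moved most like MAFF (r = 0.946), PPP1R15A (r = 0.917) and ASNS (r = 0.916), which makes asparagine. KLF6 was most like NABP1 (r = 0.910), IGF2BP2 (r = 0.902) and ETS2 (r = 0.896), and KLF10 most like PGM3 (r = 0.908), TAOK3 (r = 0.902) and PPM1B (r = 0.894). IER2 was most like RGS3 and SLC3A2 (r = 0.887 each) and STX1A (r = 0.885). The best matches were weaker for IER3 (ITGA2, r = 0.835, TNFSF9, 0.824, and ID2, 0.823) and for IER5 (RAB3GAP1, r = 0.839, UBE4B, 0.805, and TVP23C-CDRT4, 0.778).

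Among the genes themselves, the closest pair was EGR1 and NR4A1 (r = 0.871 over the same 22 libraries), followed by KLF6 with KLF10 (r = 0.776) and with EGR1 (r = 0.764). IER5 and KLF10 ran slightly against each other (r = -0.192), and IER3 and KLF10 were unrelated in direction (r = -0.03).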

How the data were processed

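Per the labels and the study's methods, RNA from sorted cells was amplified with SMART-Seq v4, made into Nextera XT libraries and sequenced. The authors ran Salmon against hg38, used tximeta to sum transcripts to genes and dropped genes that did not reach 700 counts in at least 2 samples. Versions in the submitters' processing notes are 1.2 for Salmon and 2.20 for bcl2fastq. What the authors deposited are estimated counts of each gene, as whole numbers without scaling. The labels list 29 samples, and libraries divided into parts have 1 column each, 22 in all.

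Each whole table was fitted in R 4.3.3 with edgeR 4.0.16, using its quasi-likelihood test after TMM with the condition as the only term. P-values were adjusted by Benjamini-Hochberg over the genes of the table, and adjusted p below 0.05 was called. The standard error (SE) divides the absolute log2 fold change by the root of F. Printed CPM use 1 TMM scaling over the 9431 genes in all tables. Tables were prepared with Python.

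Libraries of 1 experiment share a date in the labels, so the experiment was also a block. Deviations from group means correlated within experiments with r from 0.0279 to 0.380 (Mps1i and DMSO), from -0.0133 to 0.659 (MN) and from 0.00951 to 0.229 (rupture). Other alternatives were DESeq2 1.42.0 and limma-voom (limma 3.58.1), both run without a block and again with it (limma-voom with the block was chosen after seeing the data), DESeq2 size factors, a minimum mean of 10 CPM, pulse as a term or summed, the well as the block, and leaving out each library or experiment. Positions are from GENCODE v44.

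The text names all 10 genes, up to 4 genes of each further list with the smallest adjusted p, and the 3 genes most alike each member. Some genes of the lists are not reported here. The genes and lists were chosen with earlier results of these data known.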

Additional observations from a re-analysis of the deposited data

How the results depend on the processing

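With Mps1i, 3 of 7 genes were called, EGR1 among them, whose row rests on the Mps1i libraries; 6 were without experiment 1, 2 with the pulses summed and the replicate block (EGR1 and NR4A1, losing IER3 and the blocked call of IER2), and 1 to 3 without single libraries. Between MN+ and MN- none was called; 1 (EGR1) was with DESeq2 without and with the replicate block, with the pulses summed and with the well as the block. With rupture 1 was called; 2 were with DESeq2, 3 with DESeq2 and the replicate block, 0 with DESeq2 size factors, 2 without experiment 1, 0 without experiment 2 or 3, and 0 to 2 without single libraries. In edgeR the replicate block changed the call of IER2 with Mps1i (4 genes called) and of no other gene of the group. Over all 10577 genes with Mps1i, edgeR called 668 higher, and 1483 without experiment 1. It called 497 with the pulses summed, and 379 to 623 without single libraries. Between MN+ and MN-, DESeq2 called 5 of 10594 genes higher, and 109 of 7718 with the block. EdgeR called 465 there with the pulses summed and 34 with the well as the block. With rupture, DESeq2 called 38 of 9459 genes higher, and 49 of 9461 with the block.

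Of the values for single genes, 414 kept their direction and their side of the threshold, 15 passed only under the alternative, 16 passed only without it and 11 changed sign, all of them near 0. IER5 with Mps1i was -0.0729 without experiment 2, and KLF10 was -0.0230 without experiment 1. IER2 between MN+ and MN- was 0.0600 without experiment 1 and ranged from -0.140 to 0.0536 without single libraries. IER3 there was -0.0177 without experiment 2 and ranged from -0.0516 to 0.0917 without single libraries. IER2 with rupture was -0.00188 without experiment 2. The causes were not tested.

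The direction of EGR1 held in every comparison and alternative run, with log2 fold changes from 1.21 to 2.19 with Mps1i, from 0.84 to 1.08 with micronuclei and from 1.01 to 1.26 with rupture. Scaling within each table moved every group mean by less than 1 SD. A gene that did not reach 700 counts in 2 libraries has no row, so no level can be given for NR4A2 outside the rupture table. The IER3 row was dropped with Mps1i under the minimum of 10 CPM.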
